A study of Mus musculus with 6 samples.

Results

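The 3 control libraries of a 6-library study of mouse pancreatic islets were described here on their own. They were chosen by the submitters' sample labels, and no value was compared with the other libraries. Islets are clusters of endocrine cells scattered through the exocrine pancreas. Beta cells secrete insulin, alpha cells glucagon, delta cells somatostatin, gamma cells pancreatic polypeptide and epsilon cells ghrelin, each made as a prohormone that is cut inside secretory granules. The surrounding acinar cells make digestive enzymes, and isolated islets can carry some of this tissue with them.

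The study asked what the Notch ligand Jag1 does when beta cells make it in excess. Control mice were RIP-Cre+, Rosa26-rtTA+ and tetO_Jag1-. They therefore carried a Cre recombinase under the rat insulin promoter and a transcription factor that doxycycline activates, but not the Jag1 transgene. They received doxycycline in their drinking water for 8 weeks, as did the mice of the other group. The levels below are thus those of islets that had the driver alleles and the drug, and no library without them was analysed here. The labels give no age or sex, and they do not say that each library came from a separate mouse, so the spread given here may be partly technical. Jag1 itself stood at 3.95, 4.07 and 4.13 CPM in Control 1, 2 and 3, where CPM is the count scaled to a library total that is the same for all libraries.

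The libraries held 19770481, 17937723 and 14283469 estimated counts. Of 34945 gene symbols in the table, 19463 had a count in at least 1 library and 12630 reached 1 CPM in all 3. A count of 3 corresponded to 0.152, 0.167 and 0.21 CPM, and levels under this were read as not detectable. Transcripts of the Y chromosome genes Ddx3y, Kdm5d, Eif2s3y and Uty were present in every library, with a lowest value of 41.6 CPM for Uty in Control 2. The pairs of libraries differed by far more than counting noise, with a chi-square per degree of freedom of at least 70.5, so none was the same set of counts deposited again. Pearson's r of log2 CPM across 8870 genes, which share the same libraries and are not independent, was 0.977 for Control 1 and 2, 0.966 for Control 2 and 3 and 0.941 for Control 1 and 3.

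Insulin was the leading single product of every library, although in Control 1 the acinar secreted proteins as a class took more, at 16.0% of the counts. Ins1 and Ins2 together took 11.4% of the counts in Control 1, 13.8% in Control 2 and 16.4% in Control 3, a mean of 13.8% ± 2.50 (SD, n = 3). The exact Clopper-Pearson 95% intervals were 11.35 to 11.37, 13.78 to 13.82 and 16.34 to 16.38, which cover counting error only and are far narrower than the differences between libraries. All 13 mitochondrially encoded mRNAs together took 10.8%, 9.27% and 7.76%, highest in Control 1 and lowest in Control 3. The other islet hormone genes took 4.85%, 7.82% and 7.52%, with Control 1 below the other libraries. Granins and prohormone processing enzymes, the proteins that fill and mature the secretory granule, took 3.47%, 4.21% and 3.91%.

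**Figure D1:**
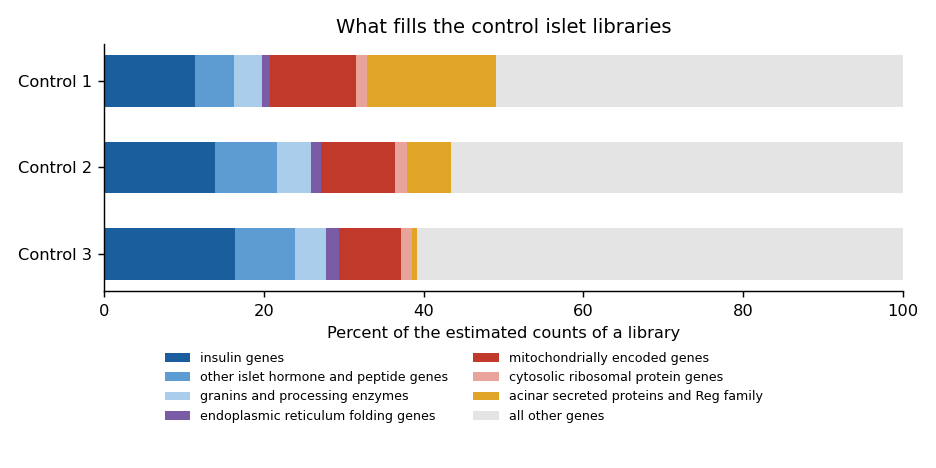
Percent of the estimated counts (x axis) taken by gene classes in each control library (1 bar per library). Insulin took 11.4% to 16.4%, whereas acinar secreted proteins with the Reg family took 16.1% in Control 1, 5.57% in Control 2 and 0.656% in Control 3.

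Exocrine transcripts differed most in percentage points of the counts among the classes drawn in the plot of composition. The 44 acinar secreted proteins of the list took 16.0% of the counts in Control 1, 5.52% in Control 2 and 0.647% in Control 3. Control 1 was 24.7-fold above Control 3, and the coefficient of variation (CV, the SD over the mean of the 3 libraries) was 1.06. More acinar cells and more acinar RNA per cell cannot be told apart in bulk RNA. Every share below is a share of a total that holds these transcripts. With acinar and Reg genes left out of the total, the insulin share was 13.5%, 14.6% and 16.5%, and its CV went from 0.181 to 0.0993.

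A few genes filled a large part of each library. In Control 1, 10 genes made up 25% of the counts, against 7 in Control 2 and 6 in Control 3, and 50% was reached with 85, 187 and 245 genes. Beyond that the libraries were broad, since 90% needed 4614, 4834 and 4848 genes. The 30 genes of highest mean CPM took 40.2%, 37.7% and 36.3% of the counts. They comprised 9 mitochondrially encoded genes, 8 acinar genes, the 2 insulin genes, 3 other hormone genes (Gcg, Iapp and Sst), 3 granins (Chga, Chgb and Scg2), 2 processing enzymes (Pcsk2 and Cpe) and 3 further genes. Those 3 were the translation elongation factor Eef1a1, the beta cell glucose-6-phosphatase subunit G6pc2 and Grip2, a scaffold protein of synapses.

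**Figure D2:**
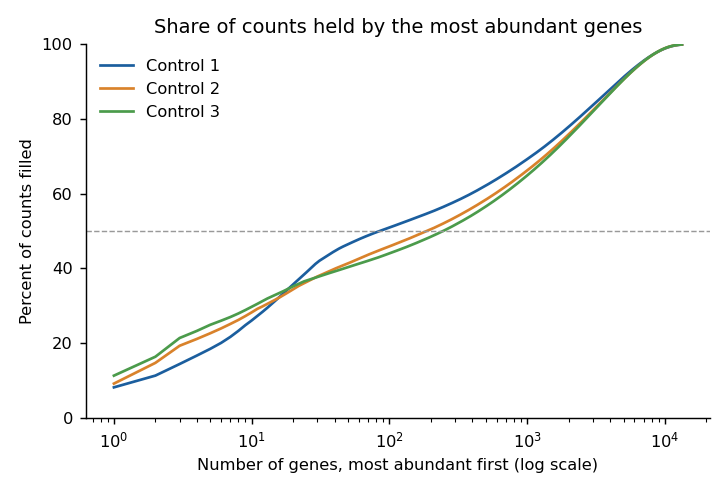
Percent of a library's counts (y axis) filled by its most abundant genes (x axis, log scale, genes with a mean of 1 CPM or more), 1 line per library. The dashed line marks 50%, which Control 1 reached with 85 genes, Control 2 with 187 and Control 3 with 245.

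The 2 insulin genes of the mouse are near copies, which bears on how counts were divided between them. The coding sequences of Ins1 (chr19:52264297-52265476, plus strand) and Ins2 (chr7:142678656-142743381, minus strand) were read from GENCODE vM21 transcripts on GRCm38. They span 327 and 333 bases. The first 150 bases of each are shown 5′ to 3′, with the bases that differ between the genes in capitals. Within this stretch, the differing bases are what lets a read be placed in 1 gene or the other.
Ins1: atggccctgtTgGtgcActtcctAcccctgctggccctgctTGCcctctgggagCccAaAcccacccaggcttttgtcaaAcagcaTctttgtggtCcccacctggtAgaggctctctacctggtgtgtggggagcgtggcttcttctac
Ins2: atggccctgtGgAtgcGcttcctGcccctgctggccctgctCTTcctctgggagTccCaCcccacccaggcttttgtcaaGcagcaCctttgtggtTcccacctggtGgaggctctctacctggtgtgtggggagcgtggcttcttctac
This stretch held 14 differences. Over the whole coding sequence 302 of 333 aligned columns (90.7%) were identical, 6 columns were gaps and the longest exact run was 56 bases. The sum of the 2 genes is therefore firmer than the split between them, by an amount that was not measured. Bases outside the coding sequence can also place reads. The longest annotated transcripts have 1062 bases for Ins1 and 918 for Ins2. The longest match of that Ins1 transcript to Ins2 was 453 bases, at 89.2% identity.

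Ins2 was the most abundant gene of all, at 82216, 92249 and 113504 CPM in Control 1, 2 and 3 (mean 95990 ± 15976, SD, n = 3). Ins1 stood at 31392, 45744 and 50065 CPM. Control 3 was highest for both. Control 1 was lowest for both on this scale, whereas with acinar-free totals Ins2 stood at 98021, 97686 and 114254 CPM, so that Control 1 and 2 nearly coincided. Gcg (chr2:62474530-62483650), which encodes glucagon, stood at 31028, 55422 and 50578 CPM (45676 ± 12914), the second highest mean CPM. Here Control 1 stood apart, and Gcg's CV was 0.283 with it and 0.0646 without it.

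Iapp, which encodes amylin and is co-secreted with insulin by beta cells, stood at 12093, 15110 and 18946 CPM, in the same order as insulin. Sst, the delta cell hormone, stood at 3162, 4458 and 3337 CPM. Ppy, the gamma cell hormone, stood at 1255, 1699 and 1098 CPM. In contrast to the insulin genes and Iapp, both were highest in Control 2, and their CVs without Control 2 were 0.0381 for Sst and 0.0944 for Ppy, against 0.192 and 0.231 with it. These small values belong to plain CPM. With acinar-free totals Sst stood at 3770, 4720 and 3359 CPM and Ppy at 1497, 1799 and 1106 CPM, where Control 2 was still highest but Control 1 and 3 lay further apart.

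Pyy, the peptide YY gene, stood at 638, 1044 and 846 CPM, and Ucn3, a peptide of mature beta cells, at 346, 453 and 348 CPM. The epsilon cell hormone ghrelin was close to the detection limit, with Ghrl at 0.708, 0.836 and 1.19 CPM. Cck was at 0 in every library, and Gast, the gastrin gene, did not exceed 0.700 CPM. The 6 marker hormone genes Ins1, Ins2, Gcg, Iapp, Sst and Ppy thus took 16.1%, 21.5% and 23.8% of the counts, so the libraries carried the label's tissue.

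**Figure D3:**
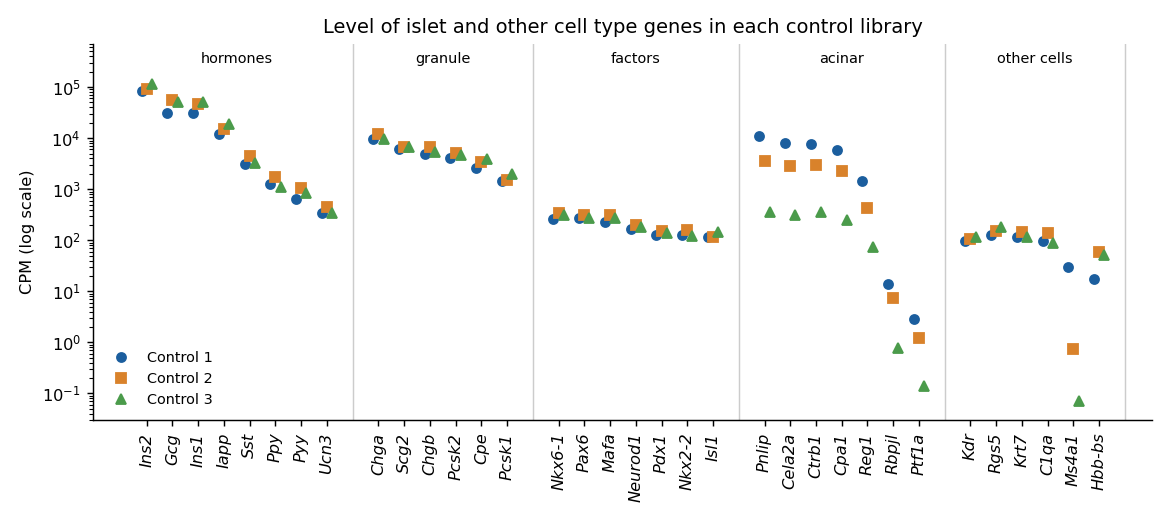
CPM on a log axis (y) of hormone, granule, transcription factor, acinar and other cell type genes, 1 point per control library. The hormone, granule and factor genes plotted differ by less than 2-fold between libraries, while the points of Pnlip run from 366 CPM in Control 3 to 11204 CPM in Control 1.

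Levels were compared between genes per length, by dividing each count by the gene's longest annotated transcript and rescaling every library to the same total. On that scale the order of mean levels was Ins2, Gcg, Ins1 and Iapp, followed by 8 mitochondrially encoded genes. As a percent of Ins2 in the same library, Ins1 was at 33.0, 42.9 and 38.1, and Gcg at 31.8, 50.7 and 37.6. Their ranges overlap, so Gcg and Ins1 could not be ordered. Iapp kept the steadiest proportion, at 16.1%, 17.9% and 18.3% of Ins2 (CV 0.0670). Sst was at 4.90%, 6.15% and 3.74% and Ppy at 2.80%, 3.38% and 1.78% of Ins2, and within each library Sst was above Ppy. The 6 hormone genes together took 28.8%, 37.7% and 43.3% of the length-scaled total. These levels rest on the transcript length used. With the median annotated transcript in place of the longest, Ins1 came to 19.8% of Ins2 on average rather than 38.0%, and Gcg to 29.6% rather than 40.0%.

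The granule list included some of the most abundant genes, and its members differed in their spread. The median CV of its 12 genes was 0.150 on plain CPM, against 0.118 over all 8870 genes with a mean of 10 CPM or more. With acinar-free totals it was 0.0961, near the 0.0947 of all genes. Chga, chromogranin A, stood at 9529, 11919 and 9490 CPM, and Chgb at 4899, 6693 and 5388 CPM. Scg2, secretogranin 2, stood at 6251, 6633 and 6722 CPM, the lowest CV of the 12 granule genes (0.0382). Vgf, a granin-like neuropeptide precursor, had the highest CV (0.362), with 19.4, 39.4 and 41.0 CPM and Control 1 apart from the others.

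Among the enzymes that cut and trim prohormones, Pcsk2 stood at 4103, 5131 and 4757 CPM and Pcsk1 at 1443, 1496 and 2002 CPM. Cpe, carboxypeptidase E, stood at 2569, 3441 and 3826 CPM. Pcsk1n, which encodes the proSAAS inhibitor of Pcsk1, went the other way, at 424, 416 and 254 CPM. The proportion of Pcsk1 to Pcsk2 per length could not be fixed, since it was 33.2% with the longest transcripts and 105% with median ones.

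All 16 beta cell markers exceeded 1 CPM in every library, with a median CV of 0.157. The same median over the 8870 genes was 0.118. G6pc2 stood at 4372, 3403 and 4583 CPM. Slc2a2, the glucose transporter of mouse beta cells, stood at 748, 822 and 959 CPM. The largest spread of the list was in Prlr, the prolactin receptor, at 1105, 944 and 1849 CPM, where Control 3 was high. The smallest was in Glp1r, the receptor for the incretin GLP-1, at 95.1, 103 and 107 CPM.

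The transcription factors of endocrine identity gave far fewer counts than the hormone genes. Of 21, 20 had a mean of at least 10 CPM. On plain CPM their median CV was 0.133 with none above 0.182, and 12 of the 20 lay above the 0.118 of all genes. With acinar-free totals the median was 0.0960, and 10 of the 20 lay above the 0.0947 of all genes. Nkx6-1, which maintains beta cells, stood at 256, 342 and 306 CPM. Mafa, an activator of insulin transcription, stood at 230, 310 and 269 CPM, and Pdx1, needed for pancreas formation and insulin expression, at 129, 153 and 138 CPM. In these 3 genes Control 2 was highest, and which library was lowest changed with the scaling for Mafa and Pdx1. Pax6, shared by all endocrine types, stood at 267, 317 and 274 CPM, and Neurod1 at 165, 200 and 186 CPM. Foxa1 was at the detection limit in Control 1 (0.152 CPM) and at 0 in the other libraries.

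Among the other alpha cell markers, the homeobox gene Irx2 stood at 19.1, 30.9 and 24.2 CPM, and the amino acid transporter gene Slc38a5 at 19.3, 29.0 and 23.2 CPM, both lowest in Control 1 as Gcg was. Of the delta cell markers beside Sst, Rbp4 stood at 121, 157 and 150 CPM and the factor Hhex at 8.85, 9.59 and 7.56 CPM.

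The exocytosis and glucose sensing lists lay close to the background spread, with median CVs of 0.110 and 0.111. Abcc8 and Kcnj11 encode the subunits of the ATP-sensitive potassium channel. Abcc8 stood at 615, 723 and 698 CPM and Kcnj11 at 111, 124 and 105 CPM. Snap25, a membrane fusion protein, stood at 134, 152 and 164 CPM. Genes that beta cells normally keep low were low here too: Ldha, lactate dehydrogenase A, stood at 13.7, 6.36 and 4.55 CPM, and Slc16a1, the lactate transporter MCT1, at 2.48, 0.557 and 0.700 CPM, both highest in Control 1.

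In the acinar list, Pnlip, the pancreatic triglyceride lipase, stood at 11204, 3520 and 366 CPM. Cela2a, an elastase, stood at 8162, 2848 and 320 CPM, and Ctrb1, chymotrypsinogen B1, at 7565, 3039 and 363 CPM. Cpa1, carboxypeptidase A1, stood at 5970, 2308 and 252 CPM. In each of these, Control 1 was more than 20 times Control 3, and Control 2 lay between them. Of the 40 members with a mean of at least 10 CPM, 37 were in the order Control 1 above Control 2 above Control 3. That order held for 5.43% of all 8870 genes at this level. The median CV of the 40 was 1.02, and it was 0.635 with Control 3 left out. The 3 exceptions, named after their values were seen, were the trypsinogen Prss3 and the trypsinogen-like genes Gm10334 and Gm5771, which were highest in Control 2. Transcripts of Prss3 and Gm10334 matched at 98.8% over 822 bases and those of Gm5771 and Gm10334 at 95.7% over 790, so the split of counts among them is uncertain.

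The amylase genes showed the same limit. Amy2a2, Amy2a3 and Amy2a4 share 100% of 3717 bases and had identical values of 16004, 5597 and 670 CPM, so only a sum has meaning. The 5 Amy2a genes summed to 74199, 22912 and 2671 CPM.

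The exocrine genes varied as a block, and their proportions to each other varied far less than their levels. As a percent of the acinar counts of the same library, the 5 Amy2a genes took 46.5%, 41.5% and 41.3%, and Pnlip 7.02%, 6.38% and 5.66%. Cela2a took 5.11%, 5.16% and 4.94%, and the trypsinogen 2210010C04Rik 3.58%, 3.67% and 3.61%. Over the 40 genes the median CV of this percent was 0.117, against 1.02 for their CPM. The range was 0.0121 to 0.697, with Gm5771 at the top.

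Other genes of the exocrine cell followed. Rbpjl, a subunit of the acinar transcription factor complex PTF1, stood at 14.1, 7.36 and 0.770 CPM. Ptf1a, another subunit, stood at 2.83 and 1.23 CPM in Control 1 and 2, and was not detectable above the limit in Control 3. Reg1, a secreted lectin of exocrine tissue, stood at 1451, 432 and 74.0 CPM. Nupr1, a stress-inducible gene abundant in exocrine pancreas, stood at 275, 112 and 45.1 CPM. All of these were highest in Control 1 and lowest in Control 3.

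The 150 bases before the start of acinar genes were searched on both strands for TGGGAA, the core that the RBPJ-type subunits of PTF1 bind. The E-box CANNTG, which the other PTF1 subunits bind, was searched for as well. Sequences are from RefSeq on GRCm38.p6, 5′ to 3′ along the gene, with TGGGAA in capitals, for Cpa1 (chr6:30639068-30639217, plus strand) and Cela2a (chr4:141826006-141826155, minus strand), which each held 1 match to either motif.
Cpa1: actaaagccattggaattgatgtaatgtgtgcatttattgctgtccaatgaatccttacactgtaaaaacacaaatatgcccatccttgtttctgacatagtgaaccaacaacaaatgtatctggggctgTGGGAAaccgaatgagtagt
Cela2a: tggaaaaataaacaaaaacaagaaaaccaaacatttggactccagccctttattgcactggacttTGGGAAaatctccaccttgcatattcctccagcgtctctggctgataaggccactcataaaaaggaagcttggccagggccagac
Among the 34 acinar genes with an entry, 11 (32.4%) held TGGGAA, against 13.1% of all 27025 promoters in the table. CANNTG was found in 25 (73.5%) against 47.4%, and both in 8 (23.5%) against 6.52%. TGGGAA was not particular to acinar genes, as 5 of 12 beta cell marker promoters (41.7%) held it. Copies within the enzyme families share sequence, so the 34 are not independent, and a match is only a match of letters. Whether such matches bear on the spread between libraries was not tested.

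The order of the libraries among the remaining genes depended on the scaling. On plain CPM, 40.6% of the 8870 genes were lowest in Control 1 and highest in Control 3. With acinar and Reg genes out of the totals this share was 15.1%, and the opposite order went from 5.43% to 22.8%. TMM scaling, which trims extreme genes, gave 21.8% and 15.5%. Only directions that held under each of these scalings are given for gene lists below.

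Genes for protein folding in the endoplasmic reticulum were lowest in Control 1 and highest in Control 3. Their sum took 1.03%, 1.30% and 1.55% of the counts, and 1.22%, 1.38% and 1.56% without acinar and Reg genes in the total. Of 21 members, 15 had this order on plain CPM and 12 with acinar-free totals, beside 40.6% and 15.1% of all genes, and 0 had the opposite order under either. Hspa5, the chaperone BiP, stood at 1019, 1351 and 1697 CPM. Hyou1, a chaperone of the same compartment, stood at 385, 622 and 792 CPM, and Manf, a stress-induced secreted protein, at 156, 222 and 301 CPM. In all 3 genes the libraries were in the order of their insulin share, and whether the 2 are connected was not tested. Ddit3, the stress factor CHOP, stood at 17.5, 25.8 and 22.0 CPM, highest in Control 2.

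Mitochondrially encoded mRNAs had the opposite order. Their CPM was highest in Control 1 and lowest in Control 3 in 8 of 13 genes, beside 5.43% of all genes, and in 9 with acinar-free totals, beside 22.8%. mt-Co1, a subunit of cytochrome oxidase, stood at 22535, 18220 and 16286 CPM. mt-Cytb, cytochrome b, stood at 15380, 13020 and 9764 CPM. Of the 15 nuclear genes of the same respiratory chain, 0 had this order on plain CPM and 3 did with acinar-free totals, and their sum was 1223, 1437 and 1491 CPM, or 1458, 1522 and 1501 CPM with acinar-free totals.

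**Figure D4:**
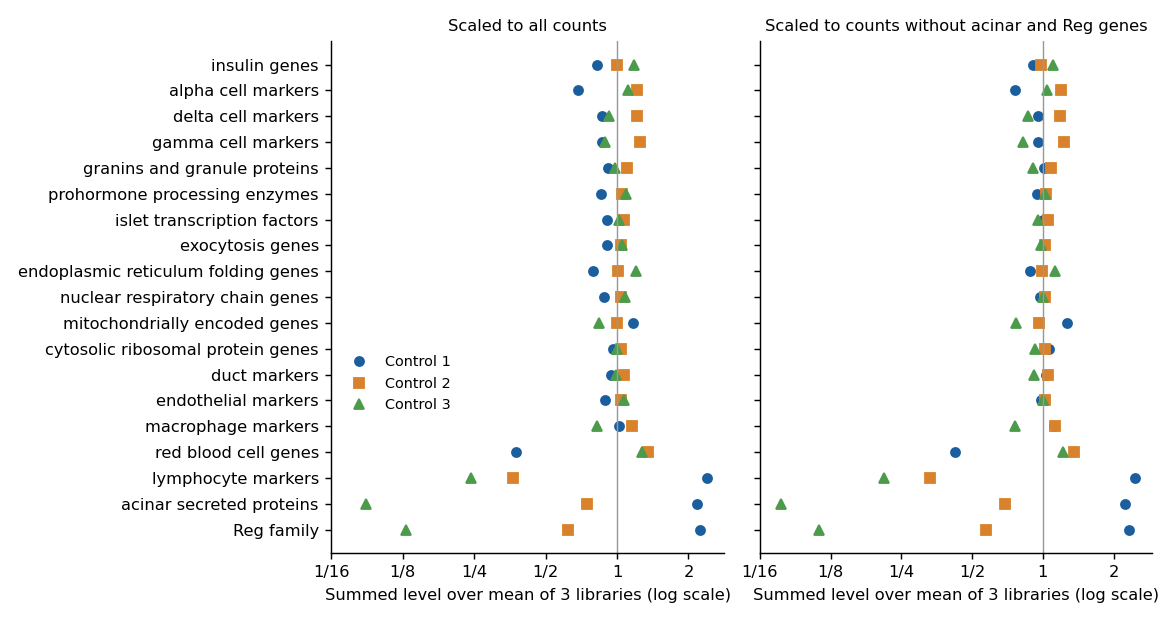
Summed level of gene lists in each control library, divided by the mean of the 3 libraries (x axis, log scale), scaled to all counts (left) and to counts without acinar and Reg genes (right). Acinar, Reg, lymphocyte and red blood cell lists spread most widely under both scalings, and among the endocrine lists the alpha cell markers spread most (33011, 58457 and 53532 CPM).

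Cytosolic ribosomal protein genes took 1.38%, 1.49% and 1.43% of the counts, a CV of 0.0402 on plain CPM and 0.0674 with acinar-free totals. Granins with processing enzymes had 0.0960 and 0.0631, so which of these classes was steadier depended on the scaling. The single ribosomal protein genes had a median CV of 0.0868 over 75 genes. The 15 reference genes had a median CV of 0.0811 on plain CPM, below the 0.118 of all genes, and of 0.126 with acinar-free totals, above the 0.0947 of all genes on that scale. Actb, beta actin, stood at 317, 265 and 240 CPM, and Pgk1, a glycolytic enzyme, at 52.9, 66.3 and 94.2 CPM, so not all common reference genes were even here.

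The genes of smallest spread also depended on the scaling. Cnbp, a nucleic acid binding protein, stood at 206, 207 and 206 CPM, with a CV of 0.00285 on plain CPM and 0.0860 with acinar-free totals. Eef1a1 had 0.0859 and 0.00493, the reverse. Scg2 stayed low under both, at 0.0382 and 0.0490.

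Markers of other non-endocrine cells were low in level. On plain CPM, median CVs were 0.117 for duct markers and 0.129 for endothelial markers, near the 0.118 of all genes. They were 0.158 for pericyte, 0.196 for macrophage and 0.392 for fibroblast markers. With acinar-free totals the duct median was 0.131, above the 0.0947 of all genes, and the endothelial median was 0.0987. The 12 fibroblast and stellate cell markers summed to 85.5, 149 and 118 CPM. The sum of 17 endothelial markers was 548, 643 and 664 CPM, led by the VEGF receptor Kdr at 95.2, 105 and 116 CPM. The pericyte marker Rgs5 stood at 130, 150 and 185 CPM. The sum of 14 duct markers was 466, 532 and 488 CPM, with Krt7 at 116, 148 and 118 CPM, although Krt19 did not exceed 2.98 CPM and Sox9 did not exceed 2.63 CPM. Muc1, on the duct list, followed the acinar order at 16.3, 5.57 and 1.82 CPM. The macrophage complement gene C1qa stood at 95.8, 139 and 90.4 CPM. Of the fat cell genes, Adipoq, Lep and Cfd were at 0 in every library.

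Blood cell transcripts separated Control 1 from the other libraries. The sum of 12 lymphocyte markers was 106, 16.1 and 10.8 CPM. Ms4a1, the B cell antigen CD20, stood at 29.3 CPM in Control 1 and 0.725 CPM in Control 2, with 1 count in Control 3. The immunoglobulin gene segments summed to 502, 16.4 and 1.54 CPM. The T cell receptor subunits Cd3e, Cd3d and Cd3g did not exceed 1.31 CPM in any library. Ptprc, the leukocyte antigen CD45, stood at 42.1, 7.64 and 7.84 CPM. Red blood cell genes went the other way, with a sum of 36.2, 131 and 124 CPM and Hbb-bs, a beta globin gene, at 17.7, 58.2 and 52.4 CPM. Control 1 was thus the highest library for acinar and B cell genes and the lowest for globin genes; how these bear on one another was not tested.

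Over all genes the spread between libraries was modest. The median CV of 0.118 came with a 10th percentile of 0.0501 and a 90th of 0.216. Of 3214 genes with a mean of at least 50 CPM, 43 had a CV above 0.5, and 36 of these were on the acinar or Reg list. The other 7, named after their values were seen, were Igkc, Gm28438, Lars2, Grip2, Nupr1, Gm28661 and Pak3.

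**Figure D5:**
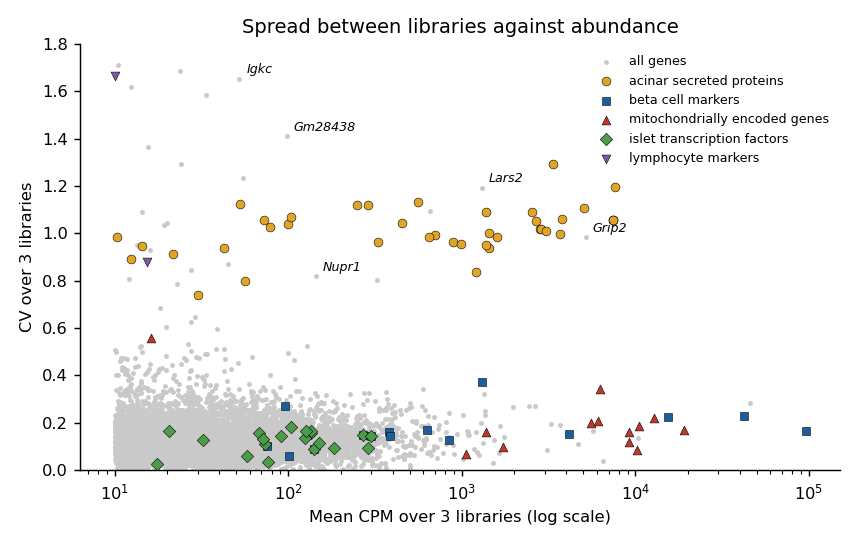
CV over the 3 libraries (y axis) against mean CPM (x axis, log scale) for genes with a mean of 10 CPM or more, with 5 gene lists marked. Acinar genes sit near 1 (median 1.02) at every abundance, while beta cell markers (median 0.157) and islet transcription factors (0.133) lie among the other genes.

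Grip2 (chr6:91761509-91827250) was the highest of these genes outside the acinar list, at 2324, 2144 and 11018 CPM. Lars2, the mitochondrial leucyl-tRNA synthetase, stood at 166, 669 and 3069 CPM. Both were high in Control 3. A stretch of 72 bases of Lars2 matched the transcript of Gm15564 at 98.6% identity, and 97 bases matched that of AA474408 at 94.8%. A search at 80% identity over 60 bases found no match of the longest Grip2 transcript to a transcript of another gene. Whether the counts of Grip2 and Lars2 hold reads of other RNAs was not tested, so their levels are uncertain. Pak3, a kinase with roles in endocrine differentiation, stood at 72.4, 109 and 203 CPM, also highest in Control 3.

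Gm28438 and Gm28661 are nuclear copies of mitochondrial sequence on chromosome 1. Gm28438 matched mt-Nd3 at 99.7% over 345 bases and stood at 26.2, 10.4 and 257 CPM, whereas its sum with mt-Nd3 was 1031, 1143 and 1278 CPM (CV 0.108). Gm28661 matched mt-Co2 at 100% over 681 bases and stood at 626, 175 and 175 CPM. Counts of such copies cannot be assigned with certainty to the nuclear or the mitochondrial gene.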

How the data were processed

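Islet RNA was made into stranded TruSeq mRNA libraries, per the labels' protocols. The authors deposited estimated counts per gene symbol, without normalization, and the submitters' processing notes name bcl2fastq, kallisto, limma and the build GRCm38 (mm10). Versions, the annotation, the use of strand and the way transcripts were summed to genes are not given in the sources used here; kallisto shares reads among near-identical transcripts. Counts without strand cannot tell a gene from an overlapping antisense gene.

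Only the 3 control columns were read. A row that names no gene (0.0105% to 0.0155% of a library) was left out, and counts were divided by the total of the remaining rows to give CPM. Gene positions and transcript lengths came from GENCODE vM21, which held 34210 of 34945 symbols. There was 1 group, so no test between groups was made. Spread is the SD or the CV over 3 libraries, for genes with a mean of 10 CPM or more where a median is given. Alternatives were TMM (edgeR 4.0.16), DESeq2 1.42.0 size factors, totals without acinar and Reg genes or without mitochondrially encoded genes, length scaling, other filters and each library left out. The steps were tested on simulated counts; edgeR's dispersion, planned as a further description, was not recovered on simulated data and is not given. Similar transcripts were found with BLAST 2.17.0 at 80% identity over 60 bases. Named genes are the 30 most abundant, the hormone markers, the leading and the most and least variable members of 38 gene lists, and genes of extreme CV; other members were named after their values were seen, and a few genes this rule selects are left out of the text. The genes and lists were chosen with earlier results of these data known. Library depths of 14283469 to 19770481 counts limit detection to 0.152 to 0.21 CPM (3 counts), for counting error only.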

Additional observations from a re-analysis of the deposited data

How the results depend on the processing

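Of 62 alternatives for the shares, gene numbers and median CVs, 50 were classed as leaving the value about the same and 12 as moving it. The number of genes at 1 CPM in all libraries and the median CVs have no spread over libraries to be held against. The acinar share had an SD of 7.82% around a mean of 7.37%, and even large shifts of it were classed as the same. Length scaling moved the insulin share from 13.8% to 24.9% (longest transcript) or 23.2% (median transcript), the ribosomal protein share from 1.44% to 2.34% or 2.15%, and the mitochondrially encoded share from 9.29% to 17.5% (longest transcript). It also moved the mean number of genes that fill 50% of counts from 172 to 12.7 or 32.7, and that number was 299 with mitochondrially encoded genes out of the total. The ribosomal protein share was 1.56% with acinar-free totals. At a threshold of 10 CPM, 8379 genes passed in all libraries, and without a filter the median CV over genes was 0.185. With each library left out in turn, the acinar median CV ranged from 0.635 to 1.30, and the acinar share from 3.08% without Control 1 to 10.7% without Control 3. The causes were not tested. The CVs of the 6 hormone genes moved in 7 of 48 alternatives and their mean CPM in 0 of 36, among them Ins1 (0.0638 without Control 1) and Ins2 (0.0813 without Control 3). No paired analysis was possible because only 1 group was described. With 3 libraries, a CV is itself imprecise, and depth limits genes under about 0.21 CPM.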

Other observations

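Several neuropeptide, proliferation, immune and immediate early genes were not named above. Pdyn, the prodynorphin gene, stood at 44.8, 112 and 140 CPM in Control 1, 2 and 3, with Control 1 low. Npy, neuropeptide Y, stood at 7.64, 16.6 and 13.2 CPM, also lowest in Control 1. Dividing cells left few transcripts: Mki67, a proliferation marker, stood at 29.0, 12.5 and 23.8 CPM and Top2a, the topoisomerase of dividing cells, at 20.9, 12.0 and 23.3 CPM, both lowest in Control 2. The class I antigen gene H2-K1 stood at 210, 245 and 197 CPM, and the interferon-induced gene Isg15 did not exceed 0.700 CPM. Immediate early genes, which rise within minutes of cell handling in many tissues, were low, with Fos at 11.0, 14.6 and 16.8 CPM and Egr1 at 26.7, 29.2 and 20.7 CPM.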
